A study of Mus musculus with 16 samples.

Results

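The genes described here code for 3 alpha-tubulins (Tuba1a, Tuba1b and Tuba4a) and 7 beta-tubulins (Tubb2a, Tubb2b, Tubb3, Tubb4a, Tubb4b, Tubb5 and Tubb6). They were chosen by symbol, with earlier results of these data known, and they are 10 of the 30389 genes listed in the count tables. Each of the 16 tables lists all 10. Their transcripts were counted by Drop-seq in single cells of dissociated cortex at 17 months of age, in 16 libraries given as 1 per mouse, which a pair of tables described below goes against. THY-Tau22 mice, on a C57Bl6/J background, are heterozygous for a mutant human tau gene under the Thy1.2 promoter, which is active in neurons, and the wild-type (WT) controls were littermates. Most cells of these libraries are glial or vascular, so few of the cells in which that promoter is active were measured. By the labels, 8 libraries are from males, 4 WT and 4 THY-Tau22, and 8 from females, 3 WT and 5 THY-Tau22, and the comparison of interest is genotype within each sex.

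Microtubules are hollow polymers of alpha- and beta-tubulin dimers, and several genes code for each kind of subunit. The proteins differ most in their C-terminal tails, which point outward from the polymer and take up many of its chemical modifications. Tau binds microtubules, and in brain tissue microtubules carry cargo along axons, into glial processes and along myelinating branches.

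The tables held 48000 cell barcodes, 3000 per library, and 28530 of them had 200 to 7000 detected genes and were kept. Kept cells per library ranged from 1121 to 2526, with 755945 to 2089367 unique molecular identifiers (UMIs, each standing for 1 captured transcript) and a median of 429 to 736.5 UMIs per cell. Of the 3000 barcodes of WT male replicate 3, 2952 were found again in THY-Tau22 male replicate 4, against 3 to 12 in every other pair of libraries, although their labels give opposite genotypes. Both were left out of every comparison, which leaves 3 libraries in each WT group, 3 of THY-Tau22 males and 5 of THY-Tau22 females. In these 14 libraries 24578 kept cells held 17735830 UMIs, of which 18090 (0.102%) came from the 10 tubulin genes. The median mitochondrial share of UMIs per kept cell, counted without mt-Rnr1 and mt-Rnr2, was 0.351% to 0.571% in WT males and 0.889% to 1.33% in THY-Tau22 males, without overlap, and 0.394% to 1.23% in WT females and 0.606% to 0.898% in THY-Tau22 females.

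Cells were clustered without any of the 27 genes whose symbols start with Tub, so that tubulins did not define the clusters, and clusters were named from marker genes. Each class name below stands for cells that resemble that type by those markers. Of the 28530 kept cells, 7864 were microglia, 5366 astrocytes, 4999 oligodendrocytes, 3923 endothelial cells, 1464 neurons and 1328 oligodendrocyte precursor cells (OPCs). Mural cells, macrophages, fibroblasts and ependymal cells gave 984, 436, 198 and 141 cells, and 1827 stayed unnamed. Of the unnamed cells, 424 came from THY-Tau22 male replicate 3, which held 1393 kept cells in all.

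Sequence decides how well the members can be counted apart, since Drop-seq reads transcripts near their 3′ ends. Tuba1a and Tuba1b are 98.3% identical over their coding sequences (23 of 1356 bases differ), while Tubb2a and Tubb2b are 96.49% identical (47 of 1338 bases). The last 60 coding bases of Tubb2a and Tubb2b, which code for the C-terminal tail and end with the stop codon, are shown 5′ to 3′ because they code for the part in which tubulins otherwise differ most. Capitals mark the bases that differ within the pair. Each stretch lies within a single exon of GRCm38 on the minus strand, at chr13:34074468-34074527 for Tubb2a and chr13:34127471-34127530 for Tubb2b.
Tubb2a: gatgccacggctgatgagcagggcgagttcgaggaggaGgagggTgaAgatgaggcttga
Tubb2b: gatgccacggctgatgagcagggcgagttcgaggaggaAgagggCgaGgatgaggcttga
The pair differs here at 3 bases, none of which changes the encoded amino acid, so the tails coded by these stretches are the same.

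Over the last 500 bases of the annotated transcript, 44.7% of the 60-base stretches of Tuba1a and 37.2% of those of Tuba1b were found in no other transcript. The rest were shared with each other, with Tuba1c or with predicted genes. For Tubb2a the share was 61.2%, with stretches shared with Tubb2b and a pseudogene, and for Tubb4b it was 70.7%, with pseudogenes. Tuba4a, Tubb2b, Tubb3, Tubb4a, Tubb5 and Tubb6 were unique over all 441 stretches. How reads that match several genes were counted was not given in the sources used here, so the split between Tuba1a and Tuba1b, and in part the counts of Tubb2a and Tubb4b, is uncertain.

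The members lie on 7 chromosomes of GRCm38 and each annotated gene has 4 exons. Tuba1a (chr15:98949847-98953501) and Tuba1b (chr15:98931429-98934390) are neighbours, as are Tubb2a (chr13:34074278-34078008) and Tubb2b (chr13:34127008-34130354). Tubb4a is at chr17:57080061-57087600, Tubb5 at chr17:35833920-35838301, Tubb3 at chr8:123411553-123422015, Tuba4a at chr1:75214972-75221261 and Tubb4b at chr2:25222158-25224702. The RefSeq promoter table of GRCm38.p6 matched 8 of the 10 members, and lacked Tubb2b and Tubb6. The 250 bases before the start are shown for Tubb4a and Tuba1a, which gave most beta- and alpha-tubulin UMIs of oligodendrocytes. They were searched on both strands for a GC box with the letters GGGCGG, for a CCAAT box with those letters, for a TATA box with the letters TATAAA and for an E-box with the letters CANNTG. Capitals mark the GC and CCAAT boxes, and no TATA box was found in either window. The windows are chr17:57087601-57087850 for Tubb4a and chr15:98953502-98953751 for Tuba1a, both on the minus strand.
Tubb4a: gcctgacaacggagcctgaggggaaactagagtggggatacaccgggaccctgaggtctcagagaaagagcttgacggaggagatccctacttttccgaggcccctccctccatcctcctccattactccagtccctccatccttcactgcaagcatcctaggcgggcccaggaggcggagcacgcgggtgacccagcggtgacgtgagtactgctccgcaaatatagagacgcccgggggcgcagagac
Tuba1a: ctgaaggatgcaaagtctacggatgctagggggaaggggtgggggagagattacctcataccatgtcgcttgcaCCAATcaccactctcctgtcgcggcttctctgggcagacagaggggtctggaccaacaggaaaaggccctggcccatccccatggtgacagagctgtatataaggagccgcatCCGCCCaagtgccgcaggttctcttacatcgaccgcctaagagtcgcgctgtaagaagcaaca
The Tuba1a window held 1 GC box, 1 CCAAT box and 1 E-box, and the Tubb4a window held none of the 4 motifs. Of 32851 promoters of the same length, 32.7% held a GC box, 33.9% a CCAAT box, 12.4% a TATA box and 66.2% an E-box. These matches describe the letters and nothing more.

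The level of each gene is given as CPM, its UMIs per 1000000 UMIs summed over the cells of a class in a library, as mean ± SD over 14 libraries. Because each captured transcript gives 1 UMI whatever its length, levels are compared between genes without a length correction. Over all kept cells Tuba1a was at 254 ± 94.4 CPM, Tuba1b at 181 ± 51.0, Tubb2a at 140 ± 43.2, Tubb4a at 139 ± 79.3, Tubb5 at 116 ± 25.5 and Tubb2b at 102 ± 29.6. Tubb4b, Tuba4a, Tubb3 and Tubb6 were lower, at 56.4 ± 23.7, 36.4 ± 12.1, 16.8 ± 7.70 and 6.25 ± 4.04 CPM. Total UMIs behind these levels ran from 4434 for Tuba1a to 286 for Tubb3 and 104 for Tubb6. The last pair was thus measured on few molecules, and their values per class rest on a handful of UMIs per library.

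Cell classes were compared in a single edgeR model (quasi-likelihood test, with class and library as terms) over all 15 pairs of the 6 largest classes. A difference counted as called where p, adjusted over all genes tested by Benjamini and Hochberg, was under 0.05 and the log2 difference at least 0.5. Tubb3 and Tubb6 did not pass the filter on low counts, which left 8 of 10 members. Microglia differed from oligodendrocytes in 7 of 8 members (background: 63.8% of 5035 genes called), from astrocytes in 6 (66.4%), from OPCs in 5 (64.3%), from endothelial cells in 5 (52.7%) and from neurons in 4 (69.8%). Astrocytes differed from OPCs in 7 (45.4%), from oligodendrocytes in 6 (56.6%), from endothelial cells in 6 (62.7%) and from neurons in 5 (62.0%). Oligodendrocytes differed from endothelial cells in 6 (56.0%), from neurons in 5 (66.5%) and from OPCs in 4 (53.8%). OPCs differed from endothelial cells in 6 (58.6%) and from neurons in 5 (46.4%), and endothelial cells from neurons in 5 (67.3%). A class difference was thus common among all genes, and what the members showed lay in which class each favoured and by how much.

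**Figure D1:**
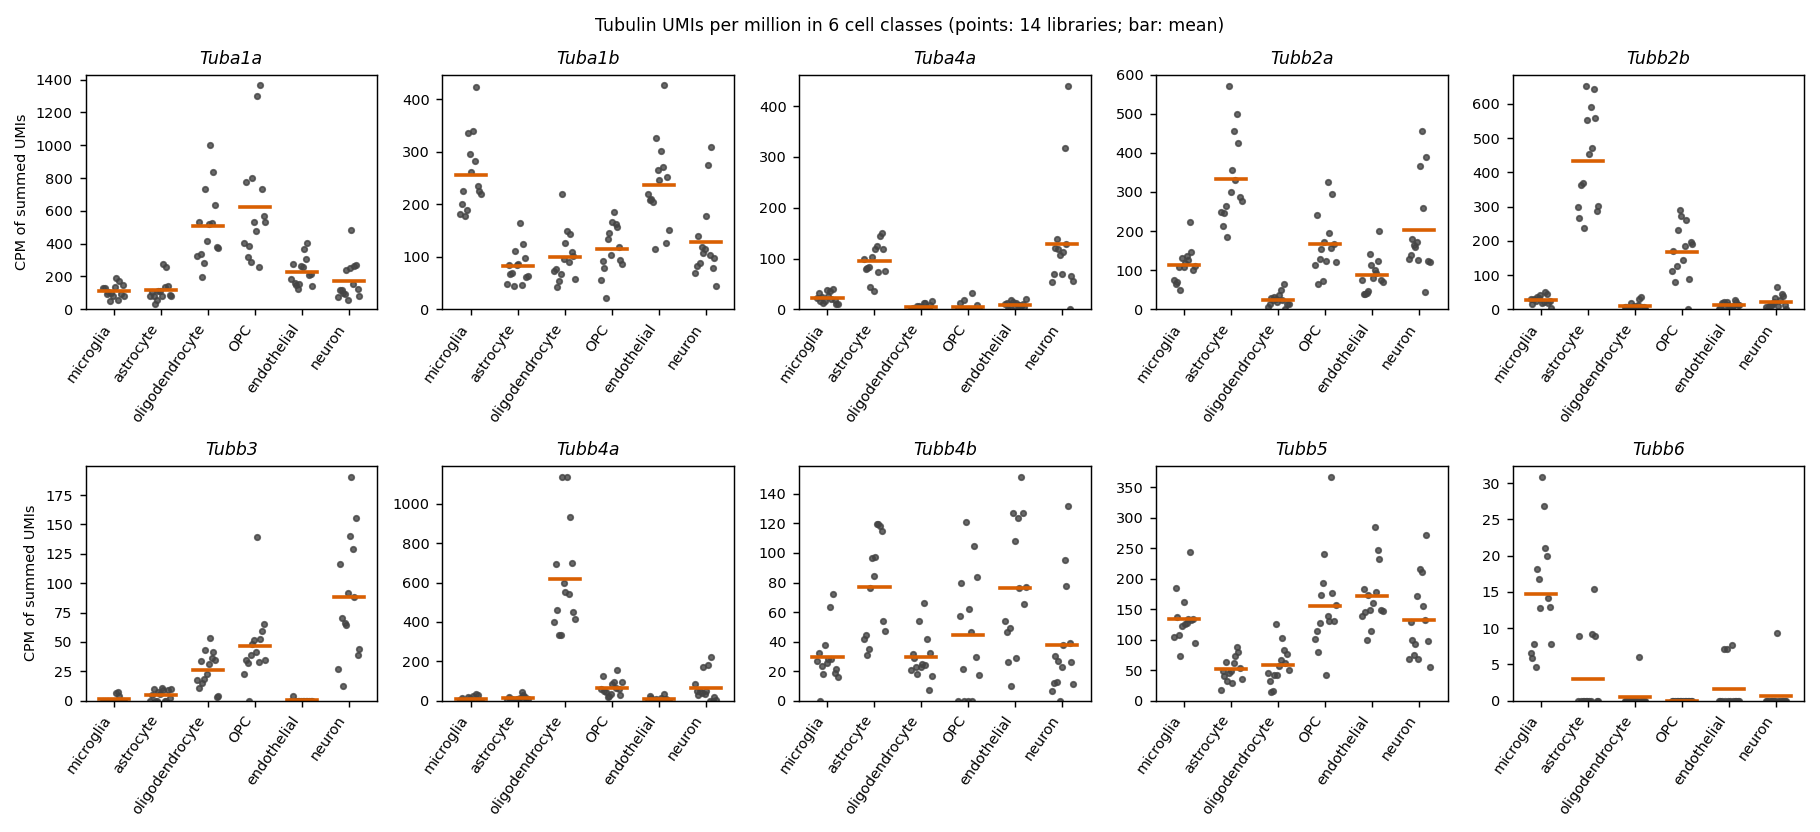
CPM of each tubulin gene (vertical axis, linear, 1 panel per gene) in the 6 largest cell classes; each point is 1 of 14 libraries and the orange bar is their mean. Tubb4a stands highest in oligodendrocytes and Tubb2b in astrocytes in all 14 libraries. The class with the highest mean stands highest in only 3 of 14 libraries for Tubb4b and in 5 for Tubb5.

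Among the alpha-tubulins, Tuba1a followed the oligodendrocyte lineage. This gene is the main alpha-tubulin of developing brain. It was at 624.5 ± 346 CPM in OPCs and 507 ± 228 in oligodendrocytes, against 230 ± 87.5 in endothelial cells, 174 ± 117 in neurons, 118 ± 69.8 in astrocytes and 113 ± 41.7 in microglia. OPCs had the highest CPM in 11 of 14 libraries, but the model put OPCs 0.17 ± 0.11 (SE) below oligodendrocytes on the log2 scale, so the order of these classes was not resolved (adjusted p = 0.181, edgeR). Oligodendrocytes were 2.45-fold above endothelial cells (log2 difference 1.29 ± 0.11, adjusted p = 2.38e-24) and 4.23-fold above microglia (2.08 ± 0.11, adjusted p = 1.53e-44). The steps from endothelial cells to neurons, neurons to astrocytes and astrocytes to microglia were not called. Over more than 1 step, endothelial cells were called above astrocytes (0.74 ± 0.13, adjusted p = 1.42e-07, edgeR) and microglia (0.79 ± 0.12, adjusted p = 3.37e-09).

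Tuba1b, a widely used alpha-tubulin, was at 257 ± 71.7 CPM in microglia and 237 ± 82.1 in endothelial cells, and at 129 ± 76.3 in neurons, 114 ± 46.8 in OPCs, 101 ± 47.2 in oligodendrocytes and 82.2 ± 33.5 in astrocytes. Microglia were highest in 9 of 14 libraries, and the step from microglia to endothelial cells was not called (log2 difference 0.26 ± 0.10, below the limit of 0.5, adjusted p = 0.0199). The step from endothelial cells to neurons was called (0.85 ± 0.15, adjusted p = 6.35e-08, edgeR). Microglia thus had the highest mean for Tuba1b and the lowest for Tuba1a, while astrocytes were low and endothelial cells high for both. Over the 84 class sums described below, the levels of the pair correlated at 0.05. Because Tuba1a and Tuba1b share much of the counted sequence, these values describe the split of their reads as counted.

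Tuba4a differs from other alpha-tubulins in lacking an encoded tyrosine at its end, and mutations in the human gene are linked to amyotrophic lateral sclerosis. It was at 128 ± 115 CPM in neurons and 95.2 ± 33.8 in astrocytes, which did not differ beyond their spread (log2 difference 0.06 ± 0.19, adjusted p = 0.811). It was at 23.2 ± 10.2 in microglia, 9.41 ± 6.04 in endothelial cells, 5.18 ± 9.89 in OPCs and 5.08 ± 5.61 in oligodendrocytes. Astrocytes were 4.39-fold above microglia (2.14 ± 0.20, adjusted p = 1.07e-20), and neurons 23.4-fold above OPCs (4.55 ± 0.45, adjusted p = 7.04e-18), a fold that rests on 4 UMIs in OPCs.

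Among the beta-tubulins, Tubb4a was the most restricted. Mutations in its human counterpart cause a disease in which myelin fails to form. It was at 620 ± 272 CPM in oligodendrocytes, and at 66.5 ± 40.4 in OPCs and 66.2 ± 71.7 in neurons. Astrocytes had 11.6 ± 13.2 CPM, microglia 10.1 ± 11.3 and endothelial cells 7.61 ± 10.5. Oligodendrocytes were highest in 14 of 14 libraries, 11.6-fold above OPCs (log2 difference 3.53 ± 0.19, adjusted p = 1.46e-42), 10.6-fold above neurons (3.40 ± 0.17, adjusted p = 2.63e-44) and 86.3-fold above endothelial cells (6.43 ± 0.21, adjusted p = 6.66e-71). OPCs and neurons did not differ beyond their spread (adjusted p = 0.761, edgeR).

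Tubb2a and Tubb2b are closely related brain tubulins, and mutations in both human genes cause malformed cortex. Tubb2b was at 432 ± 147 CPM in astrocytes and 168 ± 82.2 in OPCs, and at 27.9 ± 12.4 in microglia, 21.2 ± 18.7 in neurons, 12.8 ± 8.48 in endothelial cells and 10.8 ± 10.5 in oligodendrocytes. Astrocytes were highest in 14 of 14 libraries, 3.27-fold above OPCs (log2 difference 1.71 ± 0.15, adjusted p = 9.44e-22) and 42.5-fold above oligodendrocytes (5.41 ± 0.19, adjusted p = 1.69e-66). OPCs were in turn 5.06-fold above microglia (2.34 ± 0.22, adjusted p = 4.42e-20), and none of the single steps below microglia was called. Microglia were still called above endothelial cells (1.29 ± 0.31, adjusted p = 0.000142, edgeR) and oligodendrocytes (1.36 ± 0.30, adjusted p = 2.64e-05).

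Tubb2a was also highest in astrocytes, at 333 ± 114 CPM, in 12 of 14 libraries, but it was spread more widely. It was at 202 ± 120 in neurons, 166 ± 76.3 in OPCs, 112 ± 43.3 in microglia, 88.8 ± 45.7 in endothelial cells and 25.0 ± 17.2 in oligodendrocytes. Of its 15 class pairs 14 were called, the most of any member, and the uncalled pair was OPCs against microglia (log2 difference 0.18 ± 0.18, adjusted p = 0.383, edgeR). Astrocytes were 14.4-fold above oligodendrocytes (3.84 ± 0.16, adjusted p = 5.87e-55).

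Tubb3 is a standard marker protein of neurons. It was at 88.3 ± 52.2 CPM in neurons, 46.6 ± 31.3 in OPCs and 26.1 ± 15.4 in oligodendrocytes, and at 4.90 ± 4.38, 1.27 ± 2.60 and 0.30 ± 1.14 in astrocytes, microglia and endothelial cells. Neurons were highest in 12 of 14 libraries. These levels rest on 96, 34, 75, 15, 4 and 1 UMIs, and were not tested because the gene did not pass the count filter.

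Tubb5, Tubb4b and Tubb6 are used by many tissues, and Tubb4b is known for its place in motile cilia. Tubb5 was at 172 ± 51.8 CPM in endothelial cells, 155 ± 78.4 in OPCs, 135 ± 41.8 in microglia, 132 ± 65.7 in neurons, 58.0 ± 31.5 in oligodendrocytes and 51.1 ± 20.2 in astrocytes. None of the steps among the first 4 of these classes was called, and the step from neurons to oligodendrocytes was (log2 difference 1.00 ± 0.19, adjusted p = 1.16e-06, edgeR). Tubb4b was at 77.2 ± 34.3 CPM in astrocytes and 76.5 ± 44.3 in endothelial cells and at 29.4 to 44.5 in the other classes, and the step from endothelial cells to OPCs was called (0.94 ± 0.29, adjusted p = 0.00288). Tubb6 was at 14.8 ± 8.03 CPM in microglia, highest there in 12 of 14 libraries, and at 3.03 or less in the other 5 classes. No Tubb6 UMI was seen among 813072 UMIs of OPCs, which allows up to 3.69 CPM by counting error.

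The same values can be read as the make-up of each class's tubulin. Of beta-tubulin UMIs pooled over libraries, Tubb4a gave 80.9% in oligodendrocytes (80.3% ± 4.80 over libraries, range 70.9% to 87.9%). In astrocytes Tubb2b gave 47.0% and Tubb2a 37.3%. In endothelial cells Tubb5 gave 48.5%, in microglia Tubb5 gave 41.5% and Tubb2a 33.8%, and in neurons Tubb2a gave 39.4%, Tubb5 23.6% and Tubb3 16.0%. In the other 5 of these classes no beta-tubulin gene reached the share of Tubb4a in oligodendrocytes. OPCs had a more even mix, with 28.1% from Tubb2b, 25.1% from Tubb2a and 22.9% from Tubb5. Of alpha-tubulin UMIs Tuba1a gave 84.0% in OPCs and 82.5% in oligodendrocytes, whereas Tuba1b gave 63.9% in microglia and 50.04% in endothelial cells. Astrocytes and neurons were the classes with a sizeable Tuba4a share, at 33.4% and 28.7%.

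**Figure D2:**
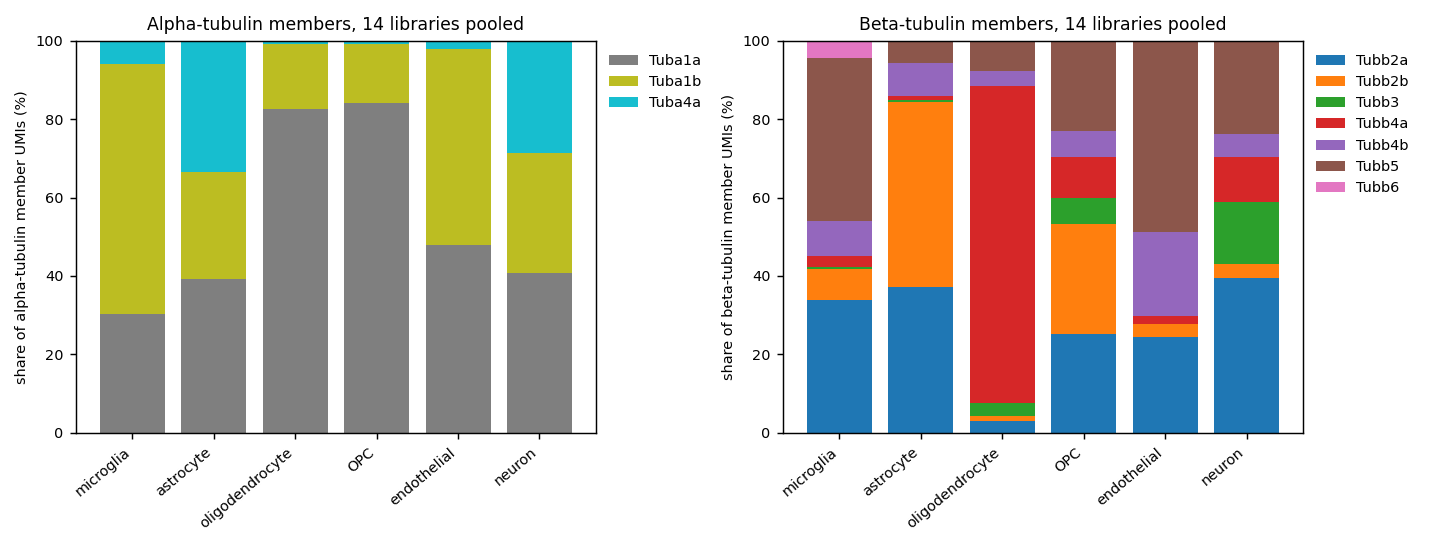
Share of each gene among alpha-tubulin UMIs (left) and beta-tubulin UMIs (right) in 6 cell classes, as stacked bars in percent with the 14 libraries pooled. Tubb4a fills 80.9% of the oligodendrocyte bar on the right, and Tuba1a fills 84.0% of the OPC bar on the left.

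The summed level of the 10 members was 1383 ± 591 CPM in oligodendrocytes, 1391 ± 509 in OPCs and 1208 ± 406 in astrocytes, against 979 ± 509 in neurons, 836 ± 255 in endothelial cells and 723 ± 207 in microglia. The ratio of alpha- to beta-tubulin UMIs was 0.82 ± 0.07 over all cells. It was 0.33 ± 0.07 in astrocytes, 0.79 ± 0.09 in oligodendrocytes and 0.79 ± 0.27 in neurons, and it was 1.12 ± 0.32 in OPCs, 1.21 ± 0.15 in microglia and 1.39 ± 0.34 in endothelial cells. The ratio covers the 10 listed genes and their captured 3′ ends, not protein. It also depends on how reads that match several genes were counted, and the part of this in its values was not tested. Unique stretches made up 44.7% for Tuba1a and 37.2% for Tuba1b, against 61.2% for Tubb2a, 70.7% for Tubb4b and all for the other beta-tubulins.

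Within OPCs, cells with at least 1 UMI of Gpr17, a receptor of precursors on the way to oligodendrocytes, were set against the rest in the 9 libraries with at least 10 cells of each kind. Tuba1a was at 825 ± 491 CPM in cells with Gpr17 and 440 ± 176 without, higher in 8 of 9 libraries, and Tubb4a at 148 ± 119 and 46.5 ± 49.97, higher in 7 of 9. Tubb4b was at 12.3 ± 27.4 and 66.4 ± 79.1, and Tubb2a was at 156 ± 83.2 and 146 ± 51.1. No test was run on this split. Among neurons, cells with and without Gad1 or Gad2, the enzymes that make the transmitter GABA, were set side by side in the same way. Tuba4a stood at 36.9 ± 36.0 and 80.4 ± 43.5 CPM, higher with these genes in 2 of 9 libraries, Tubb5 at 76.3 ± 53.0 and 149 ± 137, and Tubb3 at 69.4 ± 77.1 and 85.3 ± 42.0.

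Across the 84 sums of 6 classes and 14 libraries, the genes most like each member were sought among 5484 genes by Pearson correlation of log2(CPM + 10), as a description. Sums of a class share cell type and sums of a library share depth, so the 84 points are not independent. Tubb4a was most like Cldn11 (r = 0.92) and Mbp (0.91), which code for myelin proteins. Tuba1a was most like Pllp (0.85), Sox10 (0.81) and Bcas1 (0.77), genes of the oligodendrocyte lineage. Tubb3 was most like Scg5 (0.86), Ncald (0.85) and Cacnb4 (0.85), and Tuba4a like Chst1 (0.86), Dkk3 (0.83) and Camk2g (0.77). Tubb2b was most like Nr2e1 (0.87), AW047730 (0.86) and Kcnj16 (0.86), and Tubb2a like Id2 (0.83), Sfxn1 (0.76) and Mras (0.75). For Tubb6 the genes were Ccl12 (0.80), Ccl3 (0.79) and Was (0.79), for Tuba1b Klf2, Rps20 and Gm14303 (0.79 to 0.80), and for Tubb5 Tmsb10, Tspan13 and Gnas (0.71 to 0.74). Tubb4b had no close match, with Mt2 at 0.64, Atp5j2 at 0.57 and Mt1 at 0.57. Among the members themselves, Tuba1a and Tubb4a correlated at 0.65, Tubb2a and Tubb2b at 0.64 and Tuba1b and Tubb5 at 0.60.

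Genotype was tested in sums over all cells and in the 6 classes, for each sex alone, for the mean of the sexes and as the difference between the sexes' effects (males minus females), with edgeR's quasi-likelihood test on UMI counts summed per library. Every fold change is THY-Tau22 against WT. Between 3 and 10 members passed the count filter at each level, which gave 43 member tests per contrast. In sums over all cells, fewer cells of a type and less RNA per cell cannot be told apart.

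No member passed the call limits in any contrast at any level. In males, 18 of the 43 tests had an unadjusted p under 0.05 (15.4% of all gene tests at these levels), all of them higher in THY-Tau22, and 42 of 43 log2 fold changes were above 0. The tests share their libraries, and the all-cell sums contain the class sums. The count filter used the same libraries, so a member could pass it through the groups where it was high. Over all cells, Tubb6 held 2 to 3 UMIs per WT male library and 7 to 19 per THY-Tau22 male library. In females, 3 of 43 were at an unadjusted p under 0.05 (2.53%), all lower, and 33 of 43 fold changes were below 0. Over both sexes 6 tests were at that level (5.07%), and for the difference between sexes 19 (13.7%), with 41 of 43 higher in males. Over all genes, the median log2 fold change of each level ran from -0.01 to 0.04 in males. It ran from -0.01 to 0.02 in females and from -0.02 to 0.02 for the difference between sexes. The share of all genes called in males was 0.0% in all cells, astrocytes, OPCs, endothelial cells and neurons, 0.556% in microglia and 0.1% in oligodendrocytes. In females it was 0.0251% in oligodendrocytes and 0.0% elsewhere, over both sexes 0.0199% in microglia, 0.0816% in OPCs and 0.0% elsewhere, and for the difference between sexes 0.376% in oligodendrocytes and 0.0% elsewhere. DESeq2 called 2 members in males, Tuba1a and Tubb4a in oligodendrocytes (1.05% of genes there, 0.891% over the 7 levels), and 0 in the other contrasts, against 0.0% of genes for females, 0.0% for the sexes averaged and 0.331% for the difference between sexes. For many member tests in males and for the difference between sexes DESeq2 gave no adjusted p, and these could not be called. Over all cells in males only Tuba1a had one, and Tubb4a (unadjusted p = 0.000459, DESeq2) did not. In astrocytes of males only Tubb2a and Tubb2b had one. In males Tuba4a, Tubb2b and Tubb4b in microglia, Tuba1b and Tubb5 in oligodendrocytes, and Tubb2a and Tubb4b in endothelial cells also had none. For the difference between sexes, none was given for the same members in microglia, astrocytes and endothelial cells, and for Tubb5 in oligodendrocytes. All member tests in females and over both sexes had one. The unadjusted p of DESeq2 was under 0.05 in 18 member tests in males (13.1% of gene tests), 2 in females (1.72%), 4 with the sexes averaged (3.66%) and 19 for the difference between sexes (11.8%).

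**Figure D3:**
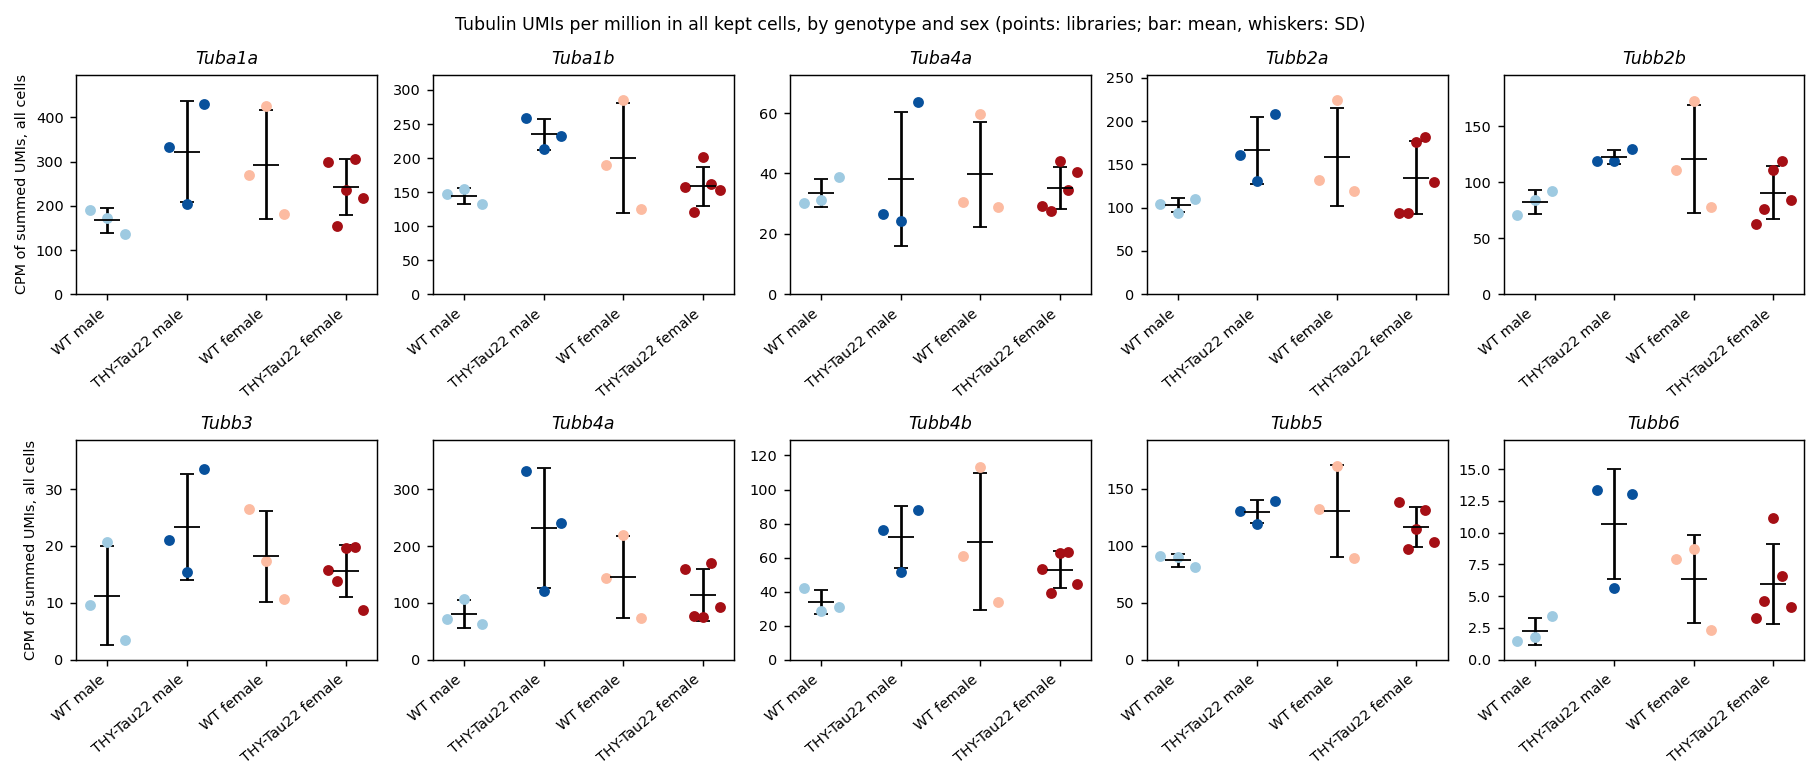
CPM of each tubulin gene in all kept cells (vertical axis, linear) by genotype and sex; points are libraries, bars the mean and whiskers the SD. The 3 THY-Tau22 males lie above all 3 WT males for 8 of the 10 genes, and the female groups overlap for all 10.

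Over all cells, the 10 members had a median log2 fold change of 0.64 in males, -0.21 in females and 0.21 over both, and the difference between sexes was 0.88, beside medians of 0.01, -0.01, 0.00 and 0.02 over all 11643 genes tested. In males 5 of 10 were at an unadjusted p under 0.05, against 15.4% of all genes. Tubb4a over all cells was at 70.8, 108 and 62.6 CPM in WT males, at 333, 121 and 241 in THY-Tau22 males, at 144, 219 and 73.6 in WT females and at 159, 77.3, 74.8, 169 and 92.8 in THY-Tau22 females. All 3 THY-Tau22 males were above all WT males, and the female groups overlapped. The fold change was 2.55 in males (log2 1.35 ± 0.37, adjusted p = 0.211, edgeR), and females gave a log2 value of -0.28 ± 0.33 (adjusted p = 1.00).

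Of the other members over all cells in males, Tuba1a had a log2 fold change of 0.75 ± 0.28, Tubb4b 0.87 ± 0.31, Tubb3 0.86 ± 0.43, Tuba1b 0.52 ± 0.23, Tubb2a 0.50 ± 0.26, Tubb2b 0.40 ± 0.25, Tubb5 0.39 ± 0.21 and Tuba4a 0.03 ± 0.32, with adjusted p from 0.256 to 0.979. Tubb6 had the largest, 2.16 ± 0.63 (adjusted p = 0.228), on 3, 2 and 3 UMIs in WT males and 14, 7 and 19 in THY-Tau22 males. In females 9 of the 10 members were below 0, from -0.11 for Tubb5 to -0.36 for Tubb2b, and Tubb6 was at 0.06 ± 0.53. Without overlap, 8 of 10 members were higher in THY-Tau22 than in WT males, against 22.4% of all genes. The exceptions were Tuba4a and Tubb3, and none of the 10 was lower without overlap (6.68% of genes). In females 0 of 10 were apart in either direction (0.679% of genes higher and 0.507% lower).

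In oligodendrocytes 4 members passed the filter, and all 4 were at an unadjusted p under 0.05 in males, against 17.4% of genes. Tubb4a in oligodendrocytes was at 398, 461 and 336 CPM in WT males and at 1137, 598 and 1137 in THY-Tau22 males. In females it was at 542, 931 and 417 in WT and at 694, 334, 553, 698 and 449 in THY-Tau22. The male groups were apart and the female groups overlapped. The fold change was 2.06 in males (log2 1.04 ± 0.28, adjusted p = 0.0929 by edgeR and 0.0423 by DESeq2) and the log2 value in females was -0.14 ± 0.25. The library that carries both labels gave 569 CPM as WT male replicate 3 and 511 as THY-Tau22 male replicate 4.

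Tuba1a in oligodendrocytes was at 326, 336 and 198 CPM in WT males and at 736, 419 and 1001 in THY-Tau22 males, again apart. It was at 524, 836 and 376 in WT females and at 535, 279, 521, 636 and 379 in THY-Tau22 females, which overlapped. The fold change was 2.11 in males (log2 1.08 ± 0.30, adjusted p = 0.0942 by edgeR and 0.0435 by DESeq2). Tuba1b was at 72.7, 43.2 and 53.4 CPM in WT males and at 220.1, 96.6 and 148 in THY-Tau22 males (1.21 ± 0.36, adjusted p = 0.0990, edgeR), and Tubb5 at 45.0, 14.4 and 15.3 and at 126, 41.4 and 65.9 (1.29 ± 0.49, adjusted p = 0.168). The log2 value of Tubb5 was 2.19 without WT male replicate 1 and 0.72 without THY-Tau22 male replicate 1. Thus 3 of the 4 tested members, Tubb4a, Tuba1a and Tuba1b, did not overlap between male genotypes, against 21.5% of genes.

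Markers of other cell types also stood higher in the oligodendrocyte sums of THY-Tau22 males, without a test. All 11 neuron markers had UMIs in oligodendrocytes, and their summed level was 153 to 183 CPM in WT males and 202 to 367 in THY-Tau22 males. Of 10 OPC markers 9 had UMIs (C1ql1 was at 0), at 558 to 605 and 695 to 1116 CPM. The 10 oligodendrocyte markers themselves overlapped, at 116820 to 146573 and 101540 to 143748 CPM. The part of these in the values of Tubb4a, Tuba1a and Tuba1b was not tested.

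In astrocytes 5 of 7 tested members did not overlap between male genotypes, against 22.3% of genes, and 2 were at an unadjusted p under 0.05, Tuba1a and Tubb4b (16.9% of genes). Tubb2b, the leading astrocyte tubulin, was at 298, 364 and 368 CPM in WT males, at 653, 553 and 592 in THY-Tau22 males, at 470, 644 and 302 in WT females and at 268, 236, 454, 558 and 287 in THY-Tau22 females. The male groups were apart and the female groups overlapped, and the log2 fold change in males was 0.54 ± 0.27 (adjusted p = 0.297, edgeR). Tubb2a was at 249.96, 246 and 264 CPM in WT males and at 572, 301 and 455 in THY-Tau22 males (0.52 ± 0.28, adjusted p = 0.332). Tubb4b was at 41.7, 30.8 and 34.7 and at 96.5, 84.2 and 119 (1.17 ± 0.41, adjusted p = 0.164), and Tuba1a at 80.3, 82.1 and 34.7 and at 111, 114 and 278 (1.04 ± 0.39, adjusted p = 0.184). The astrocyte markers, all 10 detected, were also higher in these sums, at 19931 to 23071 CPM in WT males and 25973 to 28997 in THY-Tau22 males. All 10 oligodendrocyte markers were detected in astrocytes, at 780 to 1021 CPM in WT males and 1106 to 2810 in THY-Tau22 males, and their part in these values was not tested.

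In microglia 2 of 7 tested members did not overlap between male genotypes, against 15.9% of genes, Tuba1b and Tubb2a. Tuba1b was at 181, 224 and 178 CPM in WT males, at 337, 296 and 339 in THY-Tau22 males, at 282, 424 and 220 in WT females and at 200, 188, 262, 235 and 226 in THY-Tau22 females. Its log2 fold change in males was 0.63 ± 0.24 (adjusted p = 0.183), that in females -0.44 ± 0.21 (adjusted p = 0.999), and the difference between sexes was 1.07 ± 0.32 (adjusted p = 0.171, edgeR). In endothelial cells 3 of 5 did not overlap, against 18.7% of genes, Tuba1b, Tubb2a and Tubb4b. Tubb4b was at 53.9, 26.3 and 49.4 CPM in WT males, at 127, 108 and 123 in THY-Tau22 males, at 76.2, 151 and 77.2 in WT females and at 46.7, 9.60, 28.6, 127 and 65.3 in THY-Tau22 females, with 1 to 22 UMIs a library. Its difference between sexes was 2.11 ± 0.62 on the log2 scale (adjusted p = 0.164).

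In OPCs 2 of 3 did not overlap in males, against 12.5% of genes. Tuba1a was at 407, 318 and 383 CPM in WT males and at 799, 531 and 1301 in THY-Tau22 males (log2 fold change 1.08 ± 0.39, adjusted p = 0.384, edgeR), and Tubb2b at 113, 79.4 and 128 and at 290.5, 274 and 186 (1.20 ± 0.53, adjusted p = 0.447). These sums hold 4 to 36 UMIs of each gene per male library.

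Neurons, the cells in which the transgene's promoter is active, were few, and none of their 7 tested members was apart between male genotypes, against 8.31% of genes. Tubb3 in neurons was at 27.3, 70.0 and 12.6 CPM in WT males and at 64.6, 91.7 and 190 in THY-Tau22 males, from 1 to 18 UMIs a library, and the groups overlapped (log2 fold change 1.56 ± 0.63, adjusted p = 0.581, edgeR). Tuba4a in neurons was at 54.6, 120.0 and 139 CPM and at 108, 68.8 and 317 (0.65 ± 0.58, adjusted p = 0.796), and without THY-Tau22 male replicate 3 its log2 fold change was -0.29. Between 26 and 198 neurons per library lie behind these values, with standard errors of 0.46 to 0.78 on the log2 scale against 0.28 to 0.49 in oligodendrocytes.

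**Figure D4:**
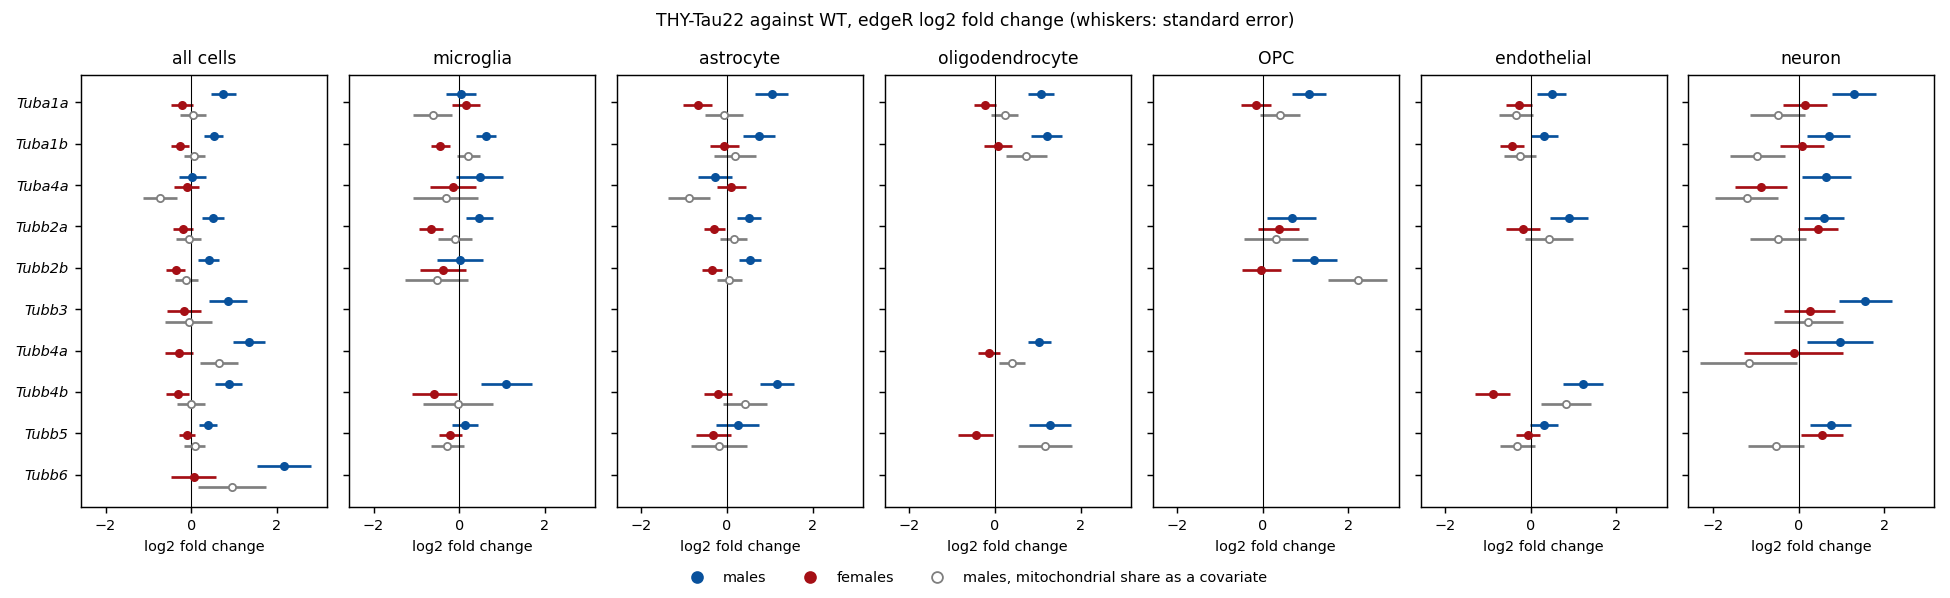
Log2 fold change of THY-Tau22 against WT (horizontal axis) for each tubulin gene that passed the count filter, in all cells and 6 classes, with standard errors as whiskers; blue is males, red females, and open grey males with the mitochondrial share as a covariate. The blue points lie above 0 in 42 of 43 tests, and the grey points scatter around 0.

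Without WT female replicate 3, the difference between sexes was called for Tuba1a, Tuba1b, Tubb4a and Tubb4b in all cells (9.56% of genes called), for Tuba1b in microglia (8.77%), for Tuba1a, Tubb2b and Tubb4b in astrocytes (14.7%), for Tuba1a, Tubb4a and Tubb5 in oligodendrocytes (11.1%) and for Tubb4b in endothelial cells (8.93%). In males, Tuba1a, Tuba1b and Tubb4a were then called in oligodendrocytes (2.71%). Both sexes were fitted together, so leaving out a female library alters the count filter, normalization and estimated spread behind the male test, not the male counts. WT female replicate 3 had a tubulin level of 743 CPM and a mitochondrial share of 0.394%, against 1104 and 1696 CPM and 0.897% and 1.23% in the other WT females. Without WT female replicate 2, Tuba1a and Tubb4a were called in oligodendrocytes of males (1.39% of genes). The difference between sexes was called for Tuba1a in oligodendrocytes without THY-Tau22 male replicate 2 (0.791%) and without THY-Tau22 female replicate 4 (2.03%).

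The summed level of the 10 members over all cells was 758, 785 and 691 CPM in WT males, 1472, 1003 and 1580 in THY-Tau22 males, 1104, 1696 and 743 in WT females and 1012, 704, 1050, 1192 and 880 in THY-Tau22 females. The 4 libraries with the highest mitochondrial share (THY-Tau22 male replicates 1 and 3, WT female replicate 2 and THY-Tau22 female replicate 4) were the 4 with the highest tubulin level. The 3 WT males and WT female replicate 3, which had the lowest mitochondrial share, ranked 10 to 14 of 14 in tubulin level, together with THY-Tau22 female replicate 2. With the mitochondrial share as a covariate, chosen after seeing the data, the median log2 fold change of the members in males over all cells was 0.02 in place of 0.64. Then 5 of 10 were higher and 0 were at an unadjusted p under 0.05 (2.98% of genes). In the 6 classes 15 of 33 tests were then higher in males, in place of 32 of 33, and 1 was at an unadjusted p under 0.05 (3.71% of genes tested), Tubb2b in OPCs (2.21 ± 0.70, adjusted p = 0.928, edgeR). The difference between sexes was then higher in males in 18 of 33 tests, in place of 31, and 2 were at an unadjusted p under 0.05 in place of 13 (3.19% of genes tested), Tubb2b in OPCs and Tubb4b in endothelial cells. For Tuba1b in microglia it was then 0.57 ± 0.34, and for Tubb4b in endothelial cells 1.65 ± 0.75. In males the genotypes do not overlap in mitochondrial share, so genotype and mitochondrial share cannot be told apart there.

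**Figure D5:**
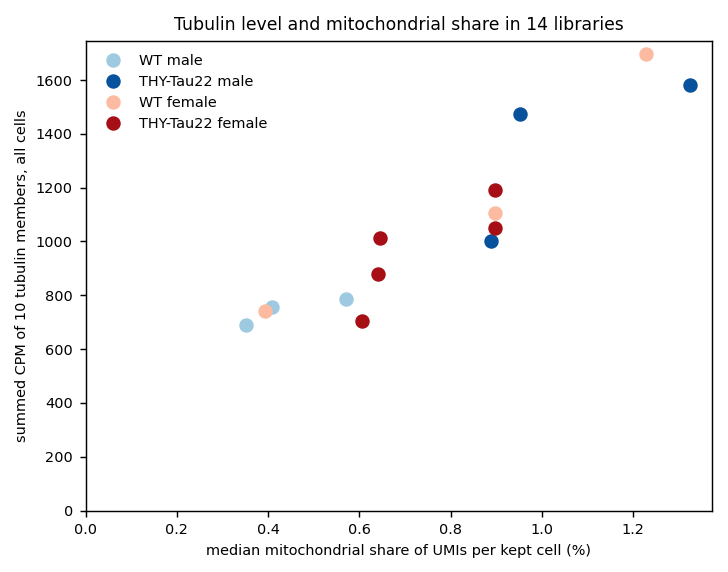
Summed CPM of the 10 tubulin genes over all kept cells (vertical axis) against the median mitochondrial share of UMIs per kept cell in percent (horizontal axis), with 1 point per library for 14 libraries, coloured by group. The 3 WT males lie at the lower left (691 to 785 CPM) and the THY-Tau22 males at 1003 to 1580 CPM, while WT females span 743 to 1696 CPM.

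Other genes of the tubulin pathway were taken from lists: further tubulins, the CCT chaperonin and prefoldin that fold new tubulin, the cofactors that join alpha- to beta-tubulin, the enzymes that modify the tails, the stathmins that hold free dimers, and Ttc5, which binds nascent tubulin at the ribosome and triggers decay of tubulin mRNA when free tubulin is in excess. Of the 55 genes listed, of which Tuba3a had no row in the summed tables, 0 were called in 130 tests per contrast by edgeR. Unadjusted p-values under 0.05 numbered 11 in males (8.46% of these tests, against 15.4% of all gene tests), 2 in females (1.54% against 2.53%), 4 over both sexes (3.08% against 5.07%) and 10 for the difference between sexes (7.69% against 13.7%), so each share was below that of all genes. Over all cells in males, 14 of 14 CCT and prefoldin subunits were tested, 10 of them higher, with a median log2 fold change of 0.10. The 8 folding cofactors had 5 higher and a median of 0.04, the 10 tested of 18 tail enzymes 6 higher and 0.02, and the 4 stathmins 3 higher and 0.14, beside the 0.64 of the members and the 0.01 of all genes. Ttc5 was at 0.23, and the 2 tested of the 10 further tubulins listed had a median of 1.24.

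By the rule for naming these genes, Tuba1c, an alpha-tubulin that shares sequence with Tuba1a and Tuba1b, was at 13.4 ± 1.71 CPM in WT males and 32.2 ± 8.57 in THY-Tau22 males (log2 fold change 1.06 ± 0.39, adjusted p = 0.266, edgeR), with 0.56 ± 0.26 over both sexes. Arl2, a small GTPase of the cofactor complex, was at 20.6 ± 6.29 and 47.1 ± 19.3 CPM (1.01 ± 0.37, adjusted p = 0.266), with a difference between sexes of 1.24 ± 0.50 (adjusted p = 0.331). Sirt2, a deacetylase of alpha-tubulin found in myelin, was at 109 ± 14.5 CPM in WT males and 165 ± 9.59 in THY-Tau22 males, with a difference between sexes of 0.70 ± 0.31 (adjusted p = 0.358). Cct4 and Cct5, subunits of the chaperonin, were lowest in p among these genes in females, at -0.30 ± 0.20 and -0.28 ± 0.20 (adjusted p = 1.00). Pfdn2, a prefoldin subunit, was at 0.44 ± 0.18 over both sexes (adjusted p = 0.946). None of these named genes was called, and they were picked for the smallest p in each contrast.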

How the data were processed

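Cells were dissociated from cortex with the Adult Brain Dissociation kit and captured by Drop-seq, and libraries were sequenced on a NextSeq 500. The authors deposited 1 table of UMI counts per gene and barcode for each library, made with the Drop-seq pipeline on mm10 per the labels. Its aligner, its version and its treatment of reads that match several genes are not given in the sources used here. Counts were used as deposited. Barcodes with 200 to 7000 detected genes were kept, clustered (scanpy 1.11.5, 2500 variable genes, 19 principal components, 20 neighbours, Leiden resolution 0.5, all 27 Tub genes left out) and named by markers. Scrublet marked 1517 cells (5.317%) as doublets, which were kept, with removal as an alternative. Counts were summed per library and class of at least 10 cells and tested with edgeR 4.0.16 (R 4.3.3, TMM, quasi-likelihood, Benjamini-Hochberg over all genes), and with DESeq2 1.42.0 as an alternative. A gene was called at an adjusted p under 0.05 and a log2 difference of at least 0.5. Libraries are given as 1 per mouse and were treated as replicates. The SDs and SEs include variation between libraries, and the upper limit for Tubb6 in OPCs covers counting error only. One title number stands on a WT male (replicate 1) and on a THY-Tau22 female (replicate 1), whose tables shared 5 barcodes. The fits were also run on counts simulated with the same spread for every gene and no mitochondrial effect. Such a run does not show how they perform on the real libraries. All 10 members were described at every level. From the other lists, genes called, or else the 2 smallest p per contrast over all cells, were named, and 3 like genes per member. The coding ends of Tubb2a and Tubb2b stand in for the planned protein tails, and 1 gene chosen by these rules is not reported here. The members and gene lists were chosen with earlier results of these data known, and the mitochondrial covariate was added after seeing the data.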

Additional observations from a re-analysis of the deposited data

Results flagged for a closer look

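In 4 of 70 groups of 5 THY-Tau22 females, 1 library stood apart from the other 4 by Dixon's test, and chance marks about 1 in 20 groups. Tubb2a in endothelial cells was at 201 CPM in replicate 4, on 19 UMIs. Tubb2b in oligodendrocytes was at 18.2 CPM in replicate 2, on 3 UMIs. Tubb3 in endothelial cells was at 4.25 CPM in replicate 1, and Tubb6 in neurons at 9.37 CPM in replicate 3, on 1 UMI each. For both, the other 4 libraries were at 0, so any UMI would be marked and the rate of 1 in 20 does not apply.

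Tubulin signal also appeared in cells that no comparison used. An unnamed cluster of 155 cells, led by Top2a, Mki67, Cenpf, Dlx1 and Sox11, had a summed level of 4047 CPM over the 10 members, pooled over libraries. The 17422 barcodes under 200 genes had 734 CPM.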

How the results depend on the processing

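No paired analysis was possible because the replicate numbers follow accession order and tie no mice together. The number of members called stayed at 0 in 319 recomputed counts that left out no single library, and changed in 9. Without a filter on low counts it became 1 in all cells, Tubb4a, in males and for the difference between sexes (adjusted p = 0.000270 and 0.00436, with 1.03% and 0.632% of genes called). Without the libraries whose titles carry the code MB22 (THY-Tau22 female replicate 5 and WT female replicate 3), the difference between sexes gave 2 in all cells (6.04% of genes), 1 in microglia (5.38%), 1 in astrocytes (11.6%), 3 in oligodendrocytes (7.81%) and 1 in endothelial cells (5.15%), and males gave 2 in oligodendrocytes (2.54%). DESeq2 gave 2 in oligodendrocytes of males. Leaving out each library in turn gave 0 to 4 for the difference between sexes in all cells, 0 to 3 in astrocytes, 0 to 3 in oligodendrocytes, 0 to 1 in microglia and 0 to 1 in endothelial cells, and 0 to 3 in oligodendrocytes of males. With the mitochondrial share as a covariate, the log2 fold change in neurons of males was -0.96 for Tuba1b, -1.21 for Tuba4a and -1.17 for Tubb4a, the members whose sign turned with both values beyond their SE. Of all members' log2 fold changes by genotype, called or not, 104 of 2356 changed sign when 1 library was left out, 63 of 172 with the mitochondrial covariate and 50 of 1792 under the other alternatives. The counts of members called between classes stayed within 1.5 times in all 75 recomputed counts and in all 210 that left out a library. Counts over all genes moved more: in males over all cells 0 genes were called by edgeR, 74 by DESeq2 and 295 without a filter, and in oligodendrocytes 4 by edgeR and 42 by DESeq2. The difference between sexes over all cells gave 0 genes, and 1142 without WT female replicate 3. In microglia of males 28 genes were called, and 0 with the mitochondrial covariate. The cause of these shifts was not tested.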

Other observations

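Smaller classes had tubulin mixes of their own, which were not tested. In ependymal cells (4 libraries with at least 10 cells) Tubb4b was at 481 ± 227 CPM, from 195 to 710, and gave 77.3% of 66 beta-tubulin UMIs, beside Tuba1a at 601 ± 336 CPM. Tubb2b, Tubb3, Tubb4a and Tubb6 had no UMI there in these libraries. Ependymal cells carry the motile cilia of the ventricle wall.

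In macrophages (13 libraries) Tubb6 was at 43.0 ± 44.0 CPM on 16 UMIs, and gave 15.7% of 102 beta-tubulin UMIs. In fibroblasts (8 libraries) Tuba1b was at 350 ± 196 CPM, Tubb5 at 292 ± 144 and Tubb4b at 148 ± 61.0. In mural cells (14 libraries) Tuba1b was at 261 ± 85.6 CPM, Tuba1a at 242 ± 78.3 and Tubb2a at 118 ± 62.9.

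The unnamed cluster led by Top2a and Mki67, genes of dividing cells, and by Dlx1 and Sox11, genes of young neurons, had Tuba1a at 1042 CPM (137 UMIs), Tubb5 at 1035 (136 UMIs), Tuba1b at 844 (111 UMIs), Tubb2b at 358 (47 UMIs), Tubb3 at 319 (42 UMIs) and Tubb4b at 243 (32 UMIs), with libraries pooled.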
